A study of Cavia porcellus with 9 samples.

Results

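The genes described here encode the mGluR6 signalling relay of ON bipolar cells, the retinal interneurons that turn a fall in glutamate from photoreceptors into a depolarisation. They are the rows for Grm6, Nyx, Lrit3, Gpr179, Gnao1, Rgs7, Rgs11, Gnb5, Trpm1 and Prkca, taken by gene name. These are 10 of the 19962 genes in the count table, chosen with earlier results of these data known. All 10 were found, all 10 had counts in every library, and all 10 passed the filter on low counts that left 15469 genes for testing.

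Retinas came from male guinea pigs (Cavia porcellus, Dunkin-Hartley strain) that were 2 weeks old when obtained, were kept for 8 weeks on a 12:12 light cycle, and are labelled as 12 weeks of age at sampling. The green group was kept under green light, the blue group under blue light and the white group under white light, with 3 retinal RNA sequencing libraries each; no genetic change is named for any group. The labels used here name neither wavelengths nor intensities. The series title places the study in the control of refractive development by defocus of different wavelengths, and the comparisons are green against white, blue against white and green against blue, so the contrasts share libraries. Libraries 1 and 2 of green, 2 and 3 of blue and 1 and 2 of white carry the same animal number. The shared pairs of blue and of white are titled as a left and a right eye, but both green libraries are titled as the right eye of the same animal, 1 of them with the suffix "-B", which is not explained and which library 3 of white also carries; they may be repeat libraries of 1 retina. The labels 2R-23 (library 1 of blue) and R-23 (library 3 of white) were taken as different animals, which the labels do not settle. Each group thus holds 2 animal labels, n = 3 counts libraries, and the p-values below measure the spread between libraries, part of which may be a spread within an animal.

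In darkness, photoreceptors release glutamate onto the dendritic tips of ON bipolar cells, where it activates the metabotropic receptor mGluR6, encoded by Grm6. The receptor acts through the G protein Go to keep the cation channel TRPM1 closed. When light lowers glutamate, a complex of RGS proteins and Gβ5 switches Go off, and TRPM1 opens. Nyctalopin, LRIT3 and GPR179 hold the receptor, the channel and the RGS complex in place, and loss of any of several of these proteins in humans or mice causes congenital stationary night blindness. Protein kinase C alpha, encoded by Prkca, is the classical marker of rod bipolar cells, a class of ON bipolar cell.

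No gene of the relay passed the threshold of an adjusted p under 0.05 in any comparison of lights. The difference farthest from 0 was that of Trpm1, the transduction channel, at a level 1.28-fold as high under green as under blue light (95% interval 1.10 to 1.49), and it did not pass after adjustment over all genes. All 10 genes had positive fitted differences between green and blue light, from 0.0032 to 0.35 on the log2 scale. Against white light, 8 of 10 had positive differences under green and 4 of 10 under blue. By edgeR's quasi-likelihood test with Benjamini-Hochberg adjustment, the background of genes called was 0.00646% of 15469 in green against white, 0.00646% in blue against white, 0% in green against blue and 0.00646% for any difference among the 3 lights. These samples are bulk tissue, so fewer cells of a type and less RNA per cell cannot be told apart.

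Libraries held between 62155041 and 74979806 counts, of which the 10 genes took 0.240% to 0.268%. Levels below are CPM, counts relative to the library's total, scaled by TMM, which corrects library totals for differences in RNA composition; they compare libraries for 1 gene and not genes with each other, because no transcript lengths were available. Each gene had between 745 and 92471 counts per library. Of 16 bipolar cell marker symbols, 12 were measured and passed the filter, among them Otx2 at 210 to 238 CPM, Isl1 at 30.4 to 32.1 CPM and Bhlhe23 at 24.3 to 26.6 CPM as group means. Library 1 of green stood apart, with the lowest summed level of 9 rod markers (65750 CPM against 76570 to 85720 CPM in the other 8 libraries) and the highest TMM factor, 1.05.

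**Figure D1:**
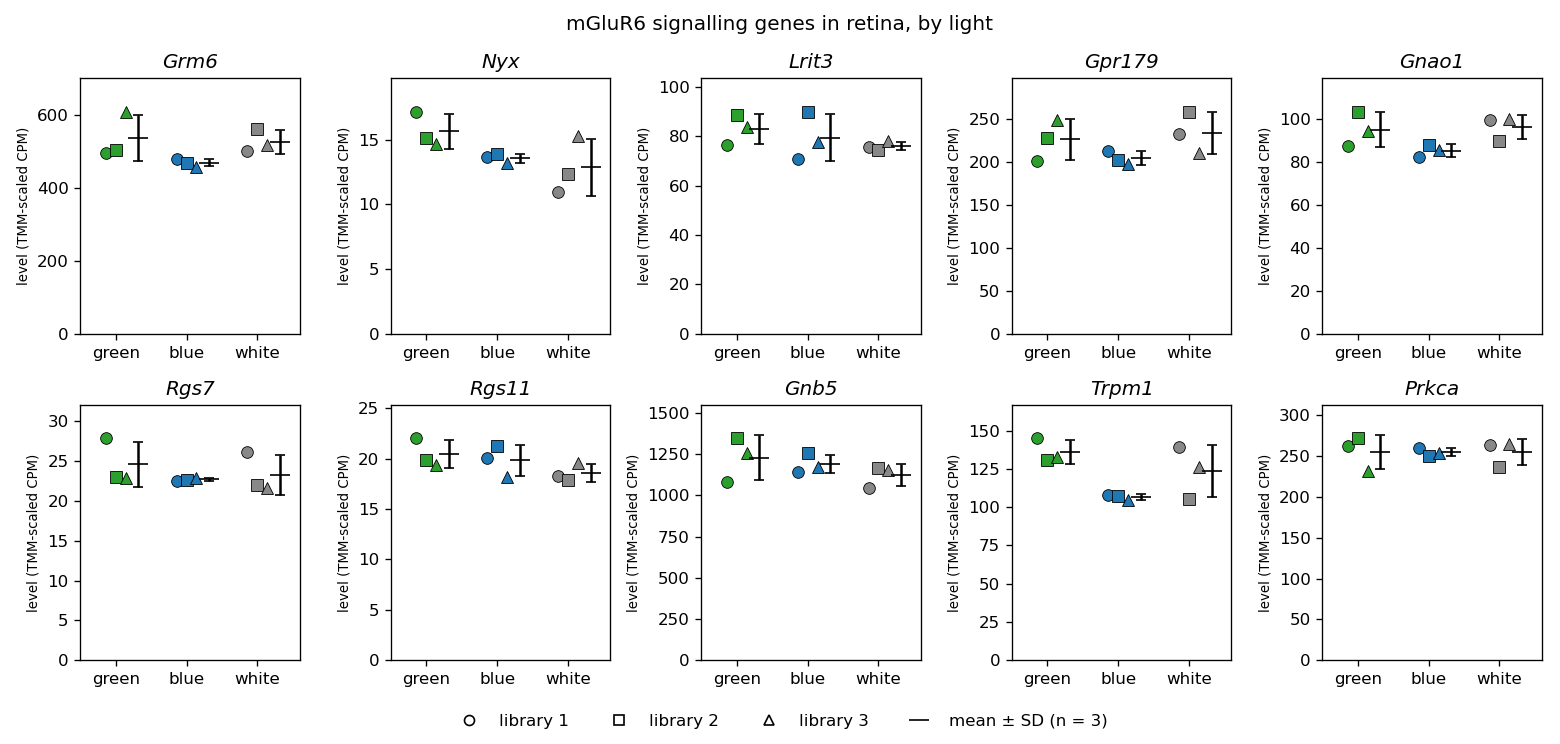
Level of each of the 10 genes in TMM-scaled CPM (vertical axes from 0) in each of the 9 libraries, green left, blue in the middle and white right; circles, squares and triangles are libraries 1, 2 and 3, and bars are the mean ± SD of 3 libraries. Trpm1 lies between 131 and 145 CPM in the green group and between 104 and 108 CPM in the blue group, while most other genes overlap between lights.

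Grm6 encodes mGluR6, the glutamate receptor that starts the relay. Its level was 497, 505 and 609 CPM under green light, 480, 470 and 459 CPM under blue light and 501, 563 and 517 CPM under white light in libraries 1 to 3. Every green and every white library lay above every blue library, while green and white overlapped, and library 3 of green was higher than all others. The mean was 537 ± 62.8 CPM in the green group, 470 ± 10.6 CPM in the blue group and 527 ± 32.0 CPM in white (SD, n = 3 each). The log2 difference was 0.19 ± 0.09 (SE) for green minus blue, with an unadjusted p of 0.0515 and an adjusted p of 0.697 by edgeR. Without library 3 of green that difference was 0.0966. For blue minus white it was -0.16 ± 0.09 (edgeR adjusted p = 1), and for green minus white 0.03 ± 0.09 (edgeR adjusted p = 0.988), which turned to -0.0778 without library 3 of green and to -0.013 without library 1 of white.

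Nyx, Lrit3 and Gpr179 encode the organisers of the postsynaptic complex. Nyx encodes nyctalopin, a leucine-rich repeat protein needed to bring TRPM1 to the dendritic tips. It stood at 17.1, 15.1 and 14.7 CPM under green light, 13.6, 13.9 and 13.2 CPM under blue light and 11.0, 12.3 and 15.2 CPM under white light in libraries 1 to 3. All green libraries lay above all blue libraries, and white spread from below blue to within the green range. Nyx had the largest difference of the 10 between green and white, 0.28 ± 0.14 (SE) on the log2 scale, with an unadjusted p of 0.0594 and an adjusted p of 0.854 by edgeR. Leaving out 1 library, the difference of Nyx green minus white was 0.178 without library 1 of white, 0.208 without library 1 of green and 0.418 without library 3 of white, where the edgeR unadjusted p was 0.00881 and the adjusted p 0.452. Nyx also had the widest relative range, with its highest library 1.56 times its lowest.

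Lrit3, which encodes another leucine-rich repeat protein that acts across this synapse, stood at 76.5, 88.6 and 83.6 CPM under green light, 70.8, 89.9 and 77.6 CPM under blue light and 75.5, 74.6 and 78.0 CPM under white light. Its lowest and its highest library were both blue, and no pair of lights was free of overlap. Gpr179 encodes an orphan receptor that anchors the RGS proteins next to mGluR6. It stood at 202, 228 and 249 CPM under green light, 213, 202 and 198 CPM under blue light and 232, 258 and 210 CPM under white light. The blue libraries were at the low end with library 1 of green and library 3 of white among them, so all 3 lights overlapped. The log2 difference of Gpr179 was -0.19 ± 0.10 (SE) for blue minus white and 0.15 ± 0.10 for green minus blue, with adjusted p of 1 and 0.78 by edgeR. Without library 2 of white the difference of Gpr179 blue minus white was -0.113. Gpr179 green minus blue was 0.0763 without library 3 of green and 0.228 without library 1 of green.

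Gnao1 encodes the alpha subunit of Go, the G protein that carries the signal to the channel; it is also widely used by other neurons of the retina, so that its total is not that of ON bipolar cells alone. It stood at 87.3, 103 and 94.2 CPM under green light, 82.3, 88.0 and 85.3 CPM under blue light and 99.2, 89.7 and 99.7 CPM under white light. Every blue library lay below every white library, while library 1 of green fell within the blue range. Gnao1 had a log2 difference of -0.18 ± 0.08 (SE) for blue minus white and 0.16 ± 0.08 for green minus blue. By edgeR the unadjusted p was 0.0618 and 0.0924, and the adjusted p 1 and 0.738. Without library 2 of green the difference between green and blue was 0.0911.

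Rgs7, Rgs11 and Gnb5 encode the complex that speeds up the switching off of Go: RGS7 and RGS11 each pair with Gβ5, the product of Gnb5. Rgs7 stood at 27.9, 23.04 and 22.9 CPM under green light, 22.5, 22.7 and 22.9 CPM under blue light and 26.2, 22.0 and 21.7 CPM under white light. Its 2 highest values were library 1 of green and library 1 of white, and the other 7 libraries lay within 21.7 to 23.04 CPM. Rgs11 stood at 22.0, 19.9 and 19.4 CPM under green light, 20.1, 21.2 and 18.2 CPM under blue light and 18.2, 17.8 and 19.5 CPM under white light, with overlap between every pair of lights. Gnb5, whose product also works in photoreceptors with RGS9, stood at 1078, 1347 and 1257 CPM under green light, 1144, 1254 and 1172 CPM under blue light and 1047, 1166 and 1152 CPM under white light. Libraries 1 and 2 of green, which share an animal number, were near the low end and at the top of its range. Without library 1 of green the log2 difference of Rgs7 was -0.022 for green minus white, against 0.08 ± 0.11 (SE) with it. None of these 3 genes differed by more than 0.141 on the log2 scale in any comparison, and their edgeR adjusted p-values lay at 0.832 or above.

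Trpm1 encodes the cation channel that opens when mGluR6 falls silent; the gene is also expressed in melanocytes. It stood at 145, 131 and 133 CPM under green light, 108, 107 and 104 CPM under blue light and 139, 105 and 126 CPM under white light. All 3 green libraries lay above all 3 blue libraries, which differed from each other by less than 4 CPM, and white libraries 1 and 2, which share an animal number, covered nearly the whole range. The mean was 136 ± 7.78 CPM in the green group, 107 ± 1.97 CPM in the blue group and 124 ± 17.2 CPM in white (SD, n = 3 each). The log2 difference for green minus blue was 0.35 ± 0.10 (SE; 95% interval 0.14 to 0.57), with an unadjusted p of 0.00442 and an adjusted p of 0.586 by edgeR. For blue minus white it was -0.21 ± 0.10 (edgeR unadjusted p = 0.0547, adjusted p = 1) and for green minus white 0.14 ± 0.10 (edgeR adjusted p = 0.946). Both moved with single libraries: Trpm1 blue minus white was -0.129 without library 1 of white and -0.317 without library 2 of white, and Trpm1 green minus white was 0.23 and 0.0371 without the same libraries and 0.0892 without library 1 of green. Over 22 alternative settings, the Trpm1 difference between green and blue ranged between 0.254 and 0.383, with an unadjusted p under 0.05 in 22 and an adjusted p between 0.14 and 0.999. Without library 1 of green it was 0.311, the lowest of the values with 1 library left out, and with counts summed per animal label Trpm1 green minus blue was 0.342. It was the only one of the 10 with an unadjusted p under 0.05 in edgeR, in green against blue, where 7.18% of all genes had one, and in the joint test of any difference among lights (unadjusted p = 0.0143, adjusted p = 0.769), where 5.94% had one. In green against white and in blue against white none of the 10 had one, beside 5.81% and 4.45% of all genes.

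Markers of pigmented cells differed in the same libraries. The summed level of 12 pigment epithelium and melanocyte genes was 275, 715 and 261 CPM under green light, 512, 558 and 699.7 CPM under blue light and 375, 737 and 322 CPM under white light. All 12 passed the filter on low counts, and Tyrp1 was at 0 in library 3 of blue and library 1 of white. Rpe65, an enzyme of the visual cycle in pigment epithelium, stood at 14.4, 102 and 7.76 CPM under green light, 61.0, 63.8 and 98.6 CPM under blue light and 44.9, 144 and 15.1 CPM under white light, while the melanin enzymes Tyr and Tyrp1 did not exceed 0.708 and 1.17 CPM in any library. The 12 genes had their lowest sums in libraries 1 and 3 of green, with 145 and 133 CPM of Trpm1. Their highest sum was in library 2 of white, with 105 CPM of Trpm1. Library 2 of green had 715 CPM of pigment genes with 131 CPM of Trpm1. In an alternative setting, the mean log2(CPM + 1) of the 12 genes, rather than their sum, was a covariate. There the Trpm1 log2 difference for green minus blue was 0.254, with an unadjusted p of 0.0493 and an adjusted p of 0.999 by edgeR. Of the 12 pigment genes, 2 had a higher and 10 a lower fitted level in green than in blue, and none passed the edgeR threshold. The part of pigmented cells in the Trpm1 difference was not tested.

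**Figure D2:**
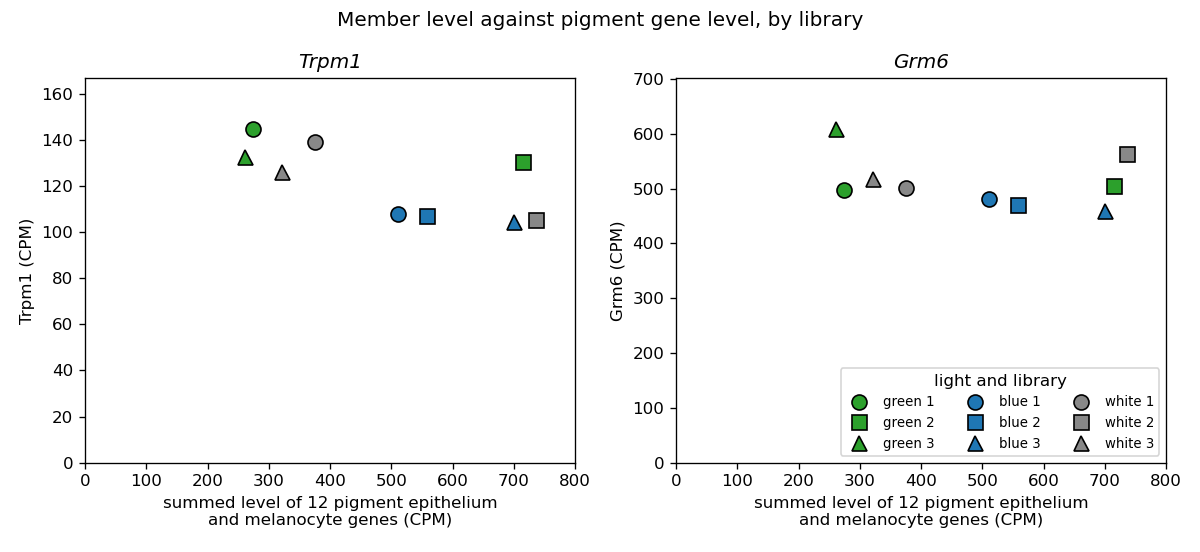
Level of Trpm1 (left) and Grm6 (right) in TMM-scaled CPM against the summed level of 12 pigment epithelium and melanocyte genes in the same library, with 1 point per library; colours are green, blue and white light and shapes are libraries 1 to 3. The blue libraries have 512 to 699.7 CPM of pigment genes with 104 to 108 CPM of Trpm1, and library 2 of green has 715 CPM with 131 CPM.

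Prkca encodes the kinase that marks rod bipolar cells. It stood at 262, 272 and 231 CPM under green light, 260, 250 and 253 CPM under blue light and 264, 236 and 264 CPM under white light. The group means were within 1 CPM of each other, at 255 ± 21.0 CPM in the green group, 254 ± 5.02 CPM in the blue group and 255 ± 16.2 CPM in white (SD, n = 3 each). The 95% interval of its fold difference was 0.885 to 1.13 for green over white, 0.883 to 1.13 for blue over white and 0.886 to 1.13 for green over blue.

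Seen across the relay, each interval holds for 1 gene and treats the libraries as independent. The outer limits given here are therefore not a joint 95% bound. The 95% intervals of fold difference of the 10 genes lay within 0.835 to 1.496 for green over white, 0.741 to 1.30 for blue over white and 0.881 to 1.49 for green over blue. The median log2 difference was 0.103 between green and white, -0.0192 between blue and white and 0.132 between green and blue, beside 0.009, 0.0048 and -0.0025 over all genes tested. The share of all genes with a positive difference was 52.4%, 51.5% and 49.4%. The count of 10 positive differences between green and blue dropped to between 8 and 10 under the 22 alternative settings; the signs that turned were those of Lrit3, Rgs11, Gnb5 and Prkca, all with differences within 0.0614 of 0 in the full fit. The counts of 8 and 4 positive differences against white became 7 to 8 for green and 4 to 5 for blue under those settings. Between green and blue, leaving out library 1 of green turned Rgs11 to -0.00969 and Prkca to -0.011, and leaving out library 2 of green turned Gnb5 to -0.0272 and Prkca to -0.0452. Leaving out blue library 1 turned Lrit3 to -0.0149, blue library 2 Prkca to -0.00897 and blue library 3 Rgs11 to -0.0153.

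**Figure D3:**
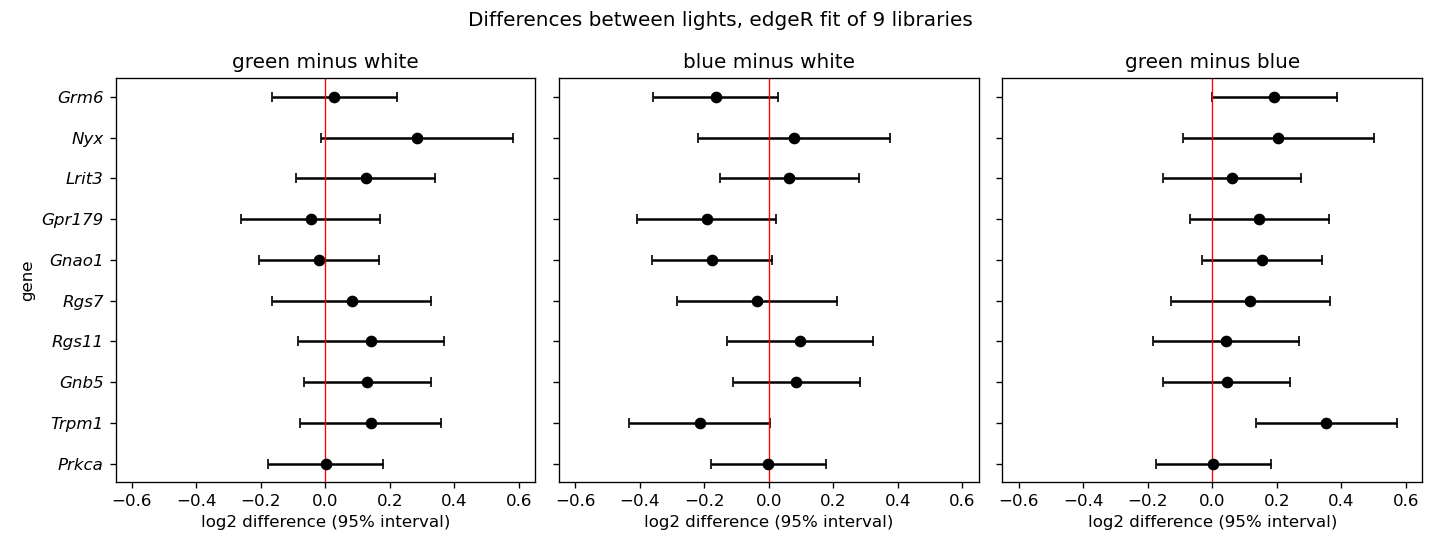
Fitted log2 difference of each gene with its 95% interval (edgeR, 9 libraries in 1 fit), with green minus white on the left, blue minus white in the middle and green minus blue on the right, and with 0 marked by a red line. The interval lies wholly above 0 for Trpm1 in green minus blue, at 0.14 to 0.57, and all other intervals include 0, that of Grm6 in the same panel from -0.0015.

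Other tools made no call among the 10 genes. Groups of libraries were free of overlap for 0 to 3 of the 10, beside 9.9% to 14.2% of all genes. DESeq2 called none of them, where it called 0.155% of genes in green against white, 0.181% in blue against white, 0.359% in green against blue and 0.531% for any difference; limma voom called none of them and 0% of genes in each of these 4. The lowest adjusted p for any of the 10 under any setting was 0.14, for Trpm1 in green against blue by DESeq2. Groups of libraries did not overlap for 0 of the 10 in green against white, where this held for 10.1% of all genes. In blue against white they did not overlap for 2 of the 10, Grm6 and Gnao1, both lower in blue, beside 9.9% of all genes. In green against blue they did not overlap for 3 of the 10, Grm6, Nyx and Trpm1, all higher in green, beside 14.2% of all genes. The same shares stand beside the list genes named below, several of which were picked for a small joint p.

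The spread between libraries had a median close to that of all genes within the range of levels of the 10. That range ran from percentile 42.7 of mean level (Nyx) to percentile 99.6 (Gnb5), and genes were not matched by level within it. The coefficient of variation within a light was 6.12% to 10.6% for the 10 genes, with a median of 8.22%, and the median over 8806 genes with mean levels in the same range was 8.78%. Over all 9 libraries the coefficient of variation ran from 5.30% for Prkca to 13.1% for Trpm1. The highest library was green for 8 of the 10 genes, and 4 of these, Nyx, Rgs7, Rgs11 and Trpm1, were highest in library 1 of green, the library with the low rod sum; the part of that library's composition in these values was not tested. The lowest library was blue for 5 genes and white for 4. Gaps pooled over the 10 genes were not smaller in the few pairs of libraries with the same animal number. The median absolute log2 gap was 0.151 in the 3 pairs with a shared animal number. It was 0.108 in 6 pairs of the same light and another number and 0.124 in 27 pairs of different lights. Genes of a pair are not independent, so 3 pairs cannot show whether sharing an animal matters. The largest gap within an animal number was that of Trpm1 between white libraries 1 and 2, at 0.40 on the log2 scale.

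**Figure D4:**
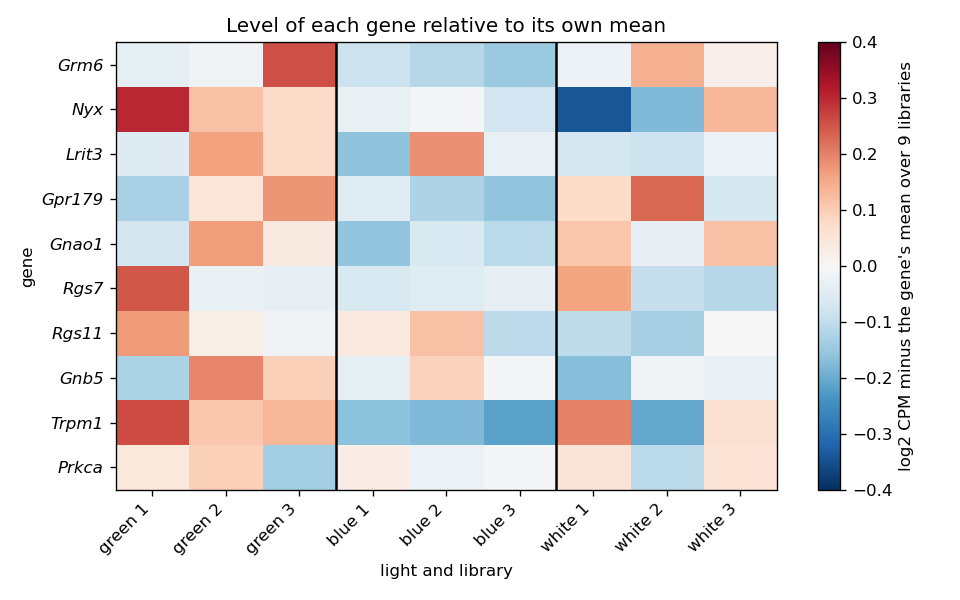
Level of each gene in each library as the log2 difference of its CPM from the gene's own mean over 9 libraries, in red above and blue below; columns run green, blue, white with libraries 1 to 3 of each. Library 1 of green is above the mean for Nyx, Rgs7, Rgs11, Trpm1 and Prkca and below it for Grm6, Lrit3, Gpr179, Gnao1 and Gnb5, and the 3 blue libraries are below it for Grm6, Nyx, Gpr179, Gnao1, Rgs7 and Trpm1.

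Levels of the 10 genes were only loosely related from library to library. Over the 45 pairs of genes, the median Pearson's r of log2 levels across 9 libraries was 0.166, with 29 pairs above 0. Over all pairs of the 11359 genes with a mean of at least 5 CPM, the median r was 0.0. These are descriptions over libraries that share animals and scaling. The closest pair was Grm6 and Gpr179 (r = 0.842, Spearman's ρ = 0.8), whose products sit side by side at the dendritic tip, and Gpr179 ranked 58 in likeness to Grm6 among genes with a mean of at least 5 CPM, of which there were 11359. The next were Lrit3 with Gnb5 (r = 0.782, ρ = 0.733) and Nyx with Rgs11 (r = 0.762, ρ = 0.683). Grm6 and Trpm1, the receptor and the channel at the ends of the relay, had r = 0.295 and ρ = 0.333. Grm6 and Prkca had r = -0.652 and ρ = -0.1, and library 3 of green was the highest for Grm6 and the lowest for Prkca.

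Ratios of counts within a library do not depend on the scaling. Gpr179 per Grm6 was the steadiest of 9 ratios computed, at 0.406, 0.452 and 0.409 under green light, 0.444, 0.430 and 0.431 under blue light and 0.463, 0.459 and 0.407 under white light in libraries 1 to 3, a coefficient of variation of 5.25%. Trpm1 per Grm6 was 0.292, 0.259 and 0.218 under green light, 0.225, 0.228 and 0.227 under blue light and 0.278, 0.187 and 0.244 under white light, a coefficient of variation of 13.4%. The blue values of this ratio lay within the green and within the white range. The green values 0.292 and 0.259 lay above all blue values. That of library 3 of green, the library with the highest Grm6, lay below them at 0.218. Grm6 itself was higher in every green than in every blue library, so the ratio does not measure Trpm1 apart from Grm6. Rgs11 per Rgs7 was 0.833 ± 0.0381 under green light, 0.875 ± 0.0734 under blue light and 0.803 ± 0.103 under white light (SD, n = 3 each).

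The genes whose levels followed Grm6 most closely over the 9 libraries were Pigo (r = 0.965), Ulk4 (r = 0.963), Pex6 (r = 0.958), the unnamed locus LOC100730084 (r = 0.957) and Itfg2 (r = 0.953). Those closest to Trpm1 were Wdr60 (r = 0.991), Golga3 (r = 0.99), Chd2 (r = 0.97), Pcdh15 (r = 0.965) and LOC100733628 (r = 0.96). None of these is among the 10.

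Partners of the relay outside the 10 genes were also without a call. Of 14 further cascade partners in ON bipolar cells, 8 had positive and 6 negative differences in green against white, 4 and 10 in blue against white and 9 and 5 in green against blue, with none past the edgeR threshold. Gng13, a G protein gamma subunit of these cells, stood at 142, 162 and 159 CPM under green light, 159.97, 164 and 171 CPM under blue light and 172, 174 and 211 CPM under white light, so that green and blue libraries all lay below the white libraries; the log2 difference for green minus white was -0.26 ± 0.09 (SE), with an edgeR unadjusted p of 0.017 and an adjusted p of 0.839. Pcp2, a modulator of Go in rod bipolar cells, averaged 128 ± 20.0 CPM under green light, 174 ± 39.6 CPM under blue light and 164 ± 20.4 CPM in white (SD, n = 3 each), with a log2 difference of -0.44 ± 0.17 (SE) for green minus blue (edgeR unadjusted p = 0.0222, adjusted p = 0.654).

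For the other side of the synapse, 13 genes were listed for the photoreceptor terminal. They were measured in bulk retina and not in photoreceptors alone. Positive differences were found in 8 for green against white, 2 for blue against white and 12 for green against blue. In green against blue the median log2 difference was 0.144, and 4 had an edgeR unadjusted p under 0.05. Over all genes, 49.4% had a positive difference there and 7.18% such a p. None of the 13 passed the edgeR threshold. Cacna1f, the calcium channel that drives glutamate release from photoreceptors, stood at 674, 786 and 698 CPM under green light, 588, 589 and 548 CPM under blue light and 551, 518 and 605 CPM under white light. Each green library lay above every blue and every white library, with log2 differences of 0.37 ± 0.08 (SE) for green minus white and 0.32 ± 0.08 for green minus blue (edgeR adjusted p = 0.696 and 0.572). Cacna2d4, an accessory subunit of that channel, stood at 435, 448 and 398 CPM under green light, 341, 340 and 305 CPM under blue light and 431, 357 and 401 CPM under white light. Its log2 difference was 0.38 ± 0.09 (SE) for green minus blue and -0.27 ± 0.09 for blue minus white (edgeR adjusted p = 0.53 and 0.968), and DESeq2 called it in green against blue.

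Relatives of the members gave no edgeR call either. Of the glutamate receptor family, 6 of 7 listed genes were measured, and Grm2 averaged 6.27 ± 0.819 CPM under green light, 7.58 ± 0.305 CPM under blue light and 6.46 ± 0.713 CPM in white (SD, n = 3 each). All 7 other TRPM channels had positive differences in green against blue, beside 49.4% of all genes. Their median was 0.188 on the log2 scale, with a lowest unadjusted p of 0.242 in edgeR. Trpm3, at a mean of 39.2 CPM under green light and 36.4 CPM under blue light, had a log2 difference of 0.106 ± 0.112 (SE). Trpm4 averaged 5.27 ± 0.227 CPM under green light, 4.57 ± 0.854 CPM under blue light and 5.70 ± 0.493 CPM in white (SD, n = 3 each). Of 5 measured RGS genes, Rgs4 stood at 12.7, 11.5 and 11.4 CPM under green light, 9.62, 8.94 and 9.58 CPM under blue light and 10.7, 10.9 and 9.88 CPM under white light, with green above both other lights in every library and a log2 difference of 0.34 ± 0.11 (SE) for green minus blue (edgeR unadjusted p = 0.0125, adjusted p = 0.647). Of 8 other protein kinase C genes, 4 had positive and 4 negative differences in green against white, 3 and 5 in blue against white and 3 and 5 in green against blue.

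Markers of the cells that hold the relay had medians near 0 in each comparison. The 12 measured bipolar cell markers had a median log2 difference of -0.0223 between green and white, 0.0686 between blue and white and -0.0523 between green and blue, and their summed level was 1428 to 1565 CPM under green light, 1516 to 1558 CPM under blue light and 1434 to 1504 CPM under white light. Scgn, which encodes the calcium-binding protein secretagogin of some cone bipolar cells, stood at 16.4, 21.7 and 18.7 CPM under green light, 27.1, 27.3 and 30.6 CPM under blue light and 21.0, 24.1 and 21.7 CPM under white light. All blue libraries lay above all green and all white libraries. Its log2 difference was -0.58 ± 0.12 (SE) for green minus blue (edgeR unadjusted p = 4.4e-04, adjusted p = 0.488), and DESeq2 called it. The 8 OFF bipolar markers, of the cells that lack mGluR6, had a median of -0.0228 for green minus blue and a summed level of 270 to 293 CPM under green light, 287 to 292 CPM under blue light and 273 to 306 CPM under white light. Neither marker list had an edgeR call.

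Marker lists of 9 other cell types or tissues (rod, cone, Müller glia, amacrine, horizontal, ganglion, microglia, blood and lens) had no edgeR call. The 9 measured Müller glia markers summed to 10210 to 11110 CPM with green light, 11140 to 12600 CPM with blue light and 9999 to 11930 CPM with white light, with positive log2 differences in 4 of 9 for green against white, 9 of 9 for blue against white (median 0.18) and 1 of 9 for green against blue (median -0.22). The 10 lens markers summed to 72.3 to 89.3 CPM with green light, 48.6 to 82.5 CPM with blue light and 29.8 to 68.7 CPM with white light, with positive differences in 9 of 10 for green against white (median 1.17), 10 of 10 for blue against white (median 1.16) and 7 of 10 for green against blue (median 0.11). Of 6 tested microglia markers, 3 had positive differences in green against white, 1 in blue against white and 5 in green against blue, and of 5 horizontal cell markers 1, 2 and 3. DESeq2 called the cone gene Cngb3, a subunit of the cone transduction channel, in green against white. The part of these cells in the values of the 10 genes was not tested.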

How the data were processed

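Retinal RNA of 9 libraries, 3 per light, was extracted with Trizol and sequenced as paired ends on an Illumina HiSeq instrument, per the labels' protocols. Whole-number counts per gene were deposited as a single table, per the file headers. The sources used here do not name the aligner, counter, strand setting, build or annotation. Low counts favour multiples of 4 (2014 values equal 4, 472 equal 3), so a count may not be a single fragment, and fits were repeated after division by 4. Library numbers follow deposition order and pair nothing across lights.

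All libraries entered a single fit with light as the only term: edgeR 4.0.16 in R 4.3.3, quasi-likelihood test, TMM factors, filterByExpr (minimum count 10, minimum total 15), and Benjamini-Hochberg adjustment over 15469 genes with a threshold of 0.05. The common biological coefficient of variation was 17.7%. DESeq2 1.42.0 and limma voom 3.58.1 were alternatives. The script recovered known changes when tested on simulated data with independent libraries. Those changes were larger than any fitted for the 10 genes. The test therefore cannot show whether differences of the size seen here, in libraries that share animals, would be called.

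The genes named are the 10 of the relay, the 2 with the smallest joint p of pathway and marker lists, the first 4 markers of a list for levels, and the 5 genes closest to Grm6 and to Trpm1 among those averaging at least 5 CPM, by r of log2(CPM + 1). The genes and lists were chosen with earlier results of these data known. Interval precision covers the spread between libraries only, and the exclusion of both libraries titled with the suffix "-B" was chosen after seeing the data. A few genes that this rule takes in are not reported here.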

Additional observations from a re-analysis of the deposited data

How the results depend on the processing

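None of the 10 genes passed the threshold under any of 22 alternative settings, in any comparison. The log2 differences changed sign in 39 of 660 alternative values, in 13 of 30 gene-by-contrast results, none of them farther from 0 than 0.0778. Counts summed per animal label gave 0.0209 for Gpr179 and -0.0482 for Prkca in green minus white and -0.0409 for Prkca in green minus blue. Without both "-B" libraries, Gnao1 gave 0.0561 and Rgs7 -0.074 in green minus white, Prkca 0.014 in blue minus white, and Rgs11 -0.0098 and Prkca -0.0111 in green minus blue. The suffix as a covariate gave -0.00611 for Rgs11 and -0.0199 for Prkca in green minus blue and 0.0218 for Prkca in blue minus white. The pigment covariate gave -0.00591 for Rgs11 in green minus blue. Prkca gave -0.00161 with no filter in green minus white, 0.000696 with the filter at 5 CPM and 0.000456 with voom in blue minus white, and -3.25e-05 with voom in green minus blue. For these reversals the cause was not tested.

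Leaving out 1 library at a time, green minus white ranged over -0.0778 to 0.0778 for Grm6, -0.125 to 0.0334 for Gpr179, -0.0847 to 0.0329 for Gnao1, -0.022 to 0.168 for Rgs7 and -0.0503 to 0.0625 for Prkca. Blue minus white ranged over -0.0326 to 0.207 for Nyx, -0.0345 to 0.14 for Lrit3, -0.0977 to 0.0451 for Rgs7 and -0.0536 to 0.0141 for Prkca. Green minus blue ranged over -0.0149 to 0.16 for Lrit3, -0.0153 to 0.0942 for Rgs11, -0.0272 to 0.135 for Gnb5 and -0.0452 to 0.0728 for Prkca. The rest kept their sign: green minus white at 0.075 to 0.175 for Lrit3, 0.0792 to 0.173 for Rgs11 and 0.0579 to 0.211 for Gnb5, blue minus white at -0.211 to -0.115 for Grm6, -0.275 to -0.113 for Gpr179, -0.224 to -0.151 for Gnao1, 0.0467 to 0.156 for Rgs11 and 0.0269 to 0.114 for Gnb5, and green minus blue at 0.0966 to 0.251 for Grm6, 0.138 to 0.254 for Nyx, 0.0763 to 0.228 for Gpr179, 0.0911 to 0.217 for Gnao1 and 0.0238 to 0.171 for Rgs7, besides Nyx and Trpm1 as given above.

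Over all genes, edgeR called 1 in green minus white, 1 in blue minus white, 0 in green minus blue and 1 in any light. DESeq2 called 24, 28, 48 and 82 of them. Voom, the 5 CPM filter and division by 4 gave 0 in green minus white, in blue minus white and in any light. Fits of the 2 compared groups gave 0, 0 and 1 in the 3 contrasts. The suffix covariate gave 3 in blue minus white, 1 in green minus blue and 2 in any light. The pigment covariate gave 2 in blue minus white and 0 in any light, and library totals or sums per animal label gave 0 in any light. Without both "-B" libraries, 10, 12 and 12 were called in green minus white, blue minus white and any light. With 1 library left out, counts ranged from 0 to 6, 0 to 7, 0 to 4 and 0 to 6. No paired analysis was possible because library numbers come from deposition order and no animal label is shared in full between lights; whether 2R-23 in blue and R-23 in white name 1 animal is not known. In a library, a count of 0 would allow 0.04 to 0.0483 CPM (3 counts; counting error only), under the levels of all 10 genes.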
